A study of Mus musculus with 16 samples.

Results

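Among 14 MC38 tumors from IgG control and aPD-1 non-responder mice, 3 tumors were chosen by the share of their RNA-seq counts that fell on the mitochondrial genome, and they were compared with the other 11. MC38 is a mouse colon carcinoma cell line, and aPD-1 is an antibody that blocks the checkpoint receptor PD-1. The 3 tumors were those with over 5% of all expected counts on genes whose names begin with mt-. They were IgG control tumor 1 and non-responder tumors 9 and 14, with shares of 7.6%, 5.998% and 5.73%. Under the threshold, the highest shares were 3.21% in IgG control tumor 3 and 3.12% in non-responder tumor 12, and the other 11 tumors began at 2.52%. None of the 14 tumors lay between 3.21% and 5.73%. These shares chose the tumors and are given as a description.

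All mice were C57BL/6 females of 6 to 8 weeks that carried MC38 cells injected under the skin of the flank. They were given 200 µg of IgG or aPD-1 on day 16 and again on day 20, and tumors were taken on day 21. Each of the 16 tumors of the series came from another mouse. Bulk RNA was extracted from 2 frozen sections of 100 microns per tumor, enriched for polyadenylated RNA and made into strand-specific libraries. The study named the aPD-1 tumors responders or non-responders by their CD8 T cells. The 2 responder tumors, with mitochondrial shares of 2.85% and 3.25%, were left out of every comparison. The high-share tumors therefore held 1 of 8 IgG controls and 2 of 6 non-responders. All tumors shared the cell line, the host strain and the day of harvest.

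**Figure D1:**
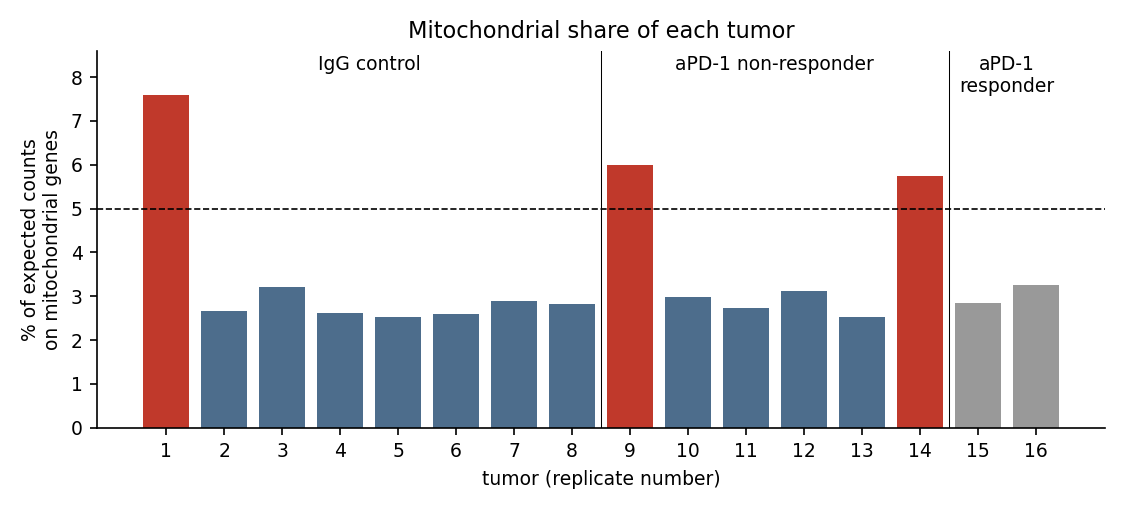
Percent of expected counts on mitochondrial genes (vertical axis) in each of the 16 tumors (horizontal axis, replicate number), with the 5% threshold as a dashed line. The 3 tumors above it lie between 5.73% and 7.6%, and the other IgG control and non-responder tumors between 2.52% and 3.21%.

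The mitochondrial genome of the mouse encodes subunits of the respiratory chain and of the ATP synthase, as well as ribosomal and transfer RNAs of the organelle. Each strand is transcribed into long precursors that are cut at transfer RNAs, and most of the resulting mRNAs carry short poly(A) tails, by which they enter a poly(A) library. The remaining subunits of the same complexes are encoded in the nucleus. The mitochondrial share of a library is in common use for describing a sample.

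Several mitochondrial mRNAs cannot be told apart from annotated copies in the nuclear genome, and the mRNAs for the ATP synthase subunits overlap each other. The next sequences, from the GENCODE transcripts on GRCm38, are shown because reads in these bases belong to more than 1 gene. The end of mt-Atp8 (chrM:7766-7969, plus strand) and the start of mt-Atp6 (chrM:7927-8607, plus strand) share 43 bases, in capitals. The start of mt-Nd3 (chrM:9459-9806, plus strand) and of its nuclear copy Gm28438 (chr1:24612775-24613119, minus strand) differ at the base in capitals, T3C counted from 1 at the first base of mt-Nd3, which was the only mismatch in 345 shared bases.
mt-Atp8 end: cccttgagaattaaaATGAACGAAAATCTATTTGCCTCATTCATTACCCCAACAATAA
mt-Atp6 start: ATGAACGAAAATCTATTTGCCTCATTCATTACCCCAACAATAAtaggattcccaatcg
mt-Nd3 start: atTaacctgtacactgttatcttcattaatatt
Gm28438 start: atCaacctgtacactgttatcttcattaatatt

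Of 37 mitochondrial genes, 15 had counts, namely 13 mRNAs and the 2 ribosomal RNAs, and the 22 transfer RNAs were at 0 in every tumor. Each of the 13 mRNAs was higher in all 3 high-share tumors than in all other 11, on the scale of CPM, counts scaled to a common total of nuclear counts, with near copies and 1 ribosomal RNA gene left out of the nuclear total. Because these genes chose the tumors, their levels are a description. All mitochondrial genes together reached 84520 in tumor 1, 65070 in tumor 9 and 62110 in tumor 14, against 26120 to 42360 with a median of 28340 in the other tumors. The ratio of means was 2.37.

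The mRNAs did not all differ by the same ratio. mt-Atp6, a subunit of the ATP synthase, had levels of 5736, 4286 and 3661 in tumors 1, 9 and 14, against 722 to 1459 with a median of 923 in the others, a ratio of means of 4.65. mt-Atp8, encoded on the same transcript, had levels of 559, 449 and 361 against 197 to 312 with a median of 269, a ratio of 1.75. These were the highest and the lowest ratio of the 13 mRNAs.

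Among the cytochrome c oxidase subunits, mt-Co2 had a ratio of 3.90, mt-Co3 of 3.002 and mt-Co1 of 2.02. Among the complex I subunits, the ratio was 3.34 for mt-Nd6, the mRNA of the opposite strand. It was 3.01 for mt-Nd3, 2.80 for mt-Nd4, 2.77 for mt-Nd2, 2.44 for mt-Nd1, 2.07 for mt-Nd4l and 1.84 for mt-Nd5. The ratio for mt-Cytb, the complex III subunit, was 2.39.

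For some of these mRNAs the ratio rested on how reads were divided with a nuclear copy. Annotated copies with at least 90% identity over at least 100 bases and with counts numbered 11, and 8 of the 13 mRNAs had such a copy. Of the counts of mt-Atp6 and its copies, 61.2%, 62.8% and 64.1% lay on the copies in tumors 1, 9 and 14, against 72.5% to 82.4% in the other tumors. Taken as a sum, mt-Atp6 and its copies had a ratio of 2.71 in place of 4.65. The sum for mt-Co2 had a ratio of 2.64 in place of 3.90, that for mt-Co3 of 2.20 in place of 3.002 and that for mt-Nd3 of 2.62 in place of 3.01. The copies of mt-Atp6, mt-Co1, mt-Co3, mt-Nd3 and mt-Nd4l were themselves higher in all 3 high-share tumors. Since such a copy holds the reads of the mitochondrial gene, its difference is no separate result.

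**Figure D2:**
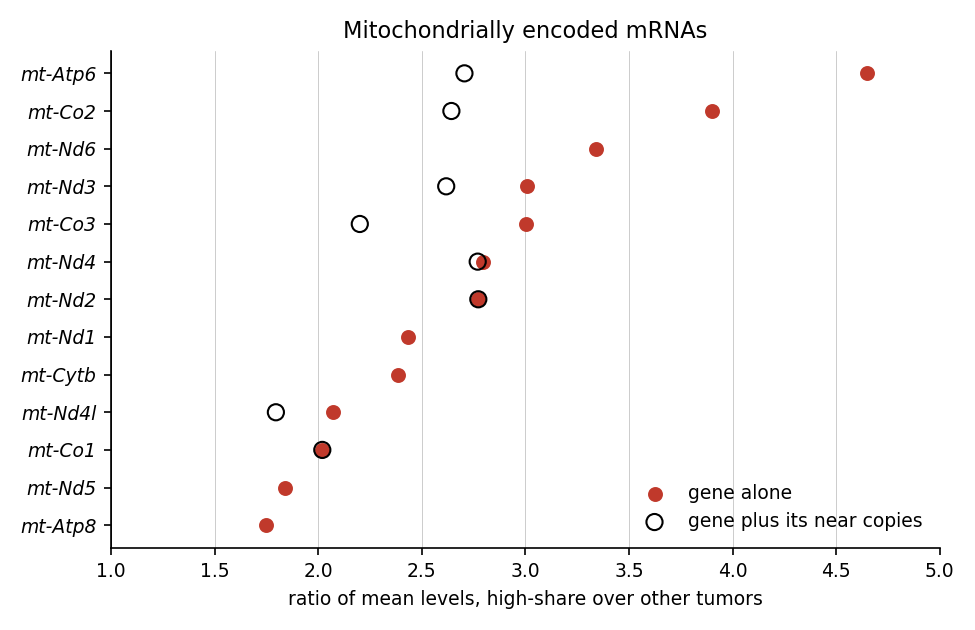
Ratio of mean levels, high-share over other tumors (horizontal axis), for each of the 13 mitochondrial mRNAs, alone (filled) and summed with its near copies where it has any (open). The ratios of the genes alone run from 1.75 for mt-Atp8 to 4.65 for mt-Atp6, and the sum for mt-Atp6 falls at 2.71.

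The ribosomal RNAs of the organelle behaved otherwise because of 1 library. Scaled to all nuclear counts, with no gene left out of that total, mt-Rnr2 had levels of 1953, 1514 and 1498 in tumors 1, 9 and 14, and it reached 8701 in IgG control tumor 3 while the other 10 tumors lay between 510 and 800. Tumor 3 also held 20.4% of all its counts on the nuclear ribosomal RNA gene CT010467.1, against 0.151% to 0.488% in the other IgG control and non-responder tumors. Leaving that gene out raised the mitochondrial share of tumor 3 to 4.03%, still under the threshold. Total counts ran from 26603477 to 39948874 over the 16 tumors, and the high-share tumors had the lowest totals of the 14. The total of tumor 3, 34075191, included its counts on CT010467.1, so its rank in depth depends on counting that gene. No batch was named in the sources used here, and depth by these totals moved with the split. After thinning all tumors to the lowest nuclear total, 1693 of the 1896 genes called below kept their call and direction.

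Outside the mitochondrial genome, 15943 genes passed the filter on low counts and were tested between the 3 high-share tumors and the other 11, with treatment in the model. Calls needed an adjusted p under 0.05 by edgeR's quasi-likelihood test together with a change of more than 1 on the log2 scale, up or down, and the 3 high-share tumors stood against 11 others in each value below. By this rule 1016 genes were called higher, 6.37% of those tested, and 880 were called lower, 5.52%. Without tumor 1 the counts were 508 and 478. At the adjusted p alone, 27.2% of genes were higher and 26.4% lower. For 18.4% of genes all 3 high-share tumors lay above all others, and for 17.6% all 3 lay below. Because the tumors were singled out with this axis of variation already known, these shares describe its extent, and the p-values rank genes.

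The first principal component of the nuclear genes held 43.9% of the variance and separated the same 3 tumors. Scores were 206 for tumor 1, 136 for tumor 9 and 98.0 for tumor 14, and the highest of the other 11 was -7.95. The order of the 3 scores was the order of the mitochondrial shares. The second component, with 12.6% of the variance, had tumors 3 and 7 at its ends and the high-share tumors between 16.2 and -3.73.

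**Figure D3:**
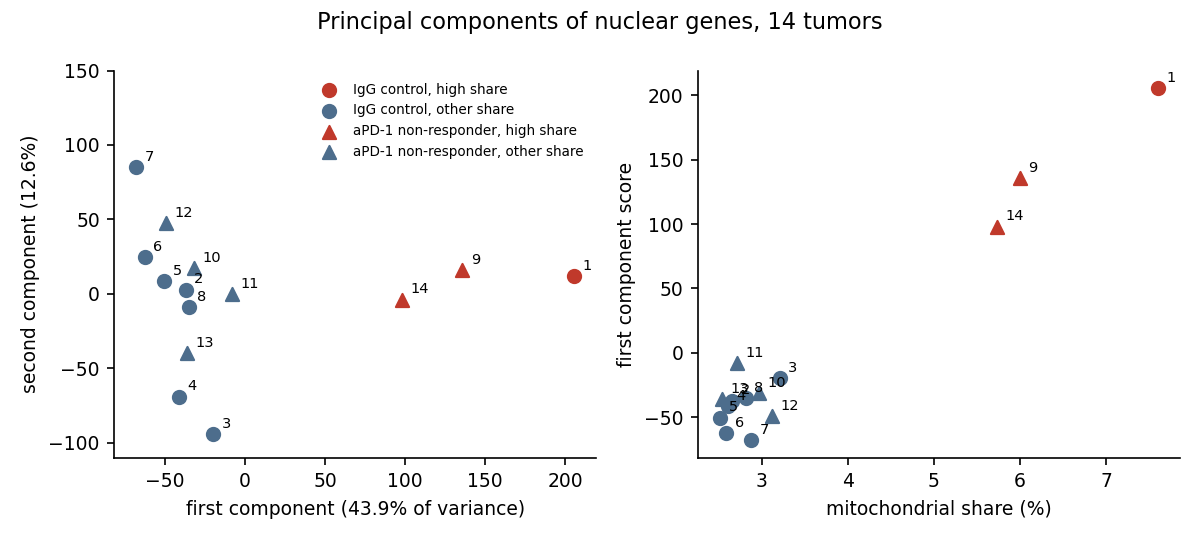
Left, scores of the 14 tumors on the first 2 principal components of log2 CPM of nuclear genes; right, the first component against the mitochondrial share in percent. Colors mark high-share and other tumors, shapes mark treatment and numbers are replicates. Tumors 1, 9 and 14 lie at 98.0 or above on the first component and the others at -7.95 or below.

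The comparison was repeated within each treatment, in tumors that the other treatment did not share. In the IgG controls, where tumor 1 was compared with 7 others, 9.69% of genes were called higher and 9.59% lower. In the non-responders, where tumors 9 and 14 were compared with 4 others, 3.47% were called higher and 2.87% lower, which are 553 and 457 genes, and without tumor 9 there were 248 and 205. The IgG comparison had a single high-share tumor, whose spread was taken to be that of the other groups. Of 1010 genes called in the non-responders, 671 were also called in the IgG controls. That is 66.4% of the non-responder calls and 21.8% of the IgG calls, and 669 of the 671 had the same direction. Across genes, which are not independent replicates, the fold changes of the 2 treatments had a Pearson correlation of 0.708 and a Spearman correlation of 0.761, given as a description over the 15943 genes.

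The sizes of the effects in the IgG controls and in the non-responders were also compared. The IgG effect rests on tumor 1 alone, which has the highest share, so a difference between treatments and a difference between tumor 1 and tumors 9 and 14 cannot be told apart. The difference of the 2 effects had an adjusted p below 0.05 for 696 genes, 4.37% of those tested. The 3 genes of lowest p were the lincRNA Gm38102, Nupr1 and Traf2. Gm38102 had 1.28 CPM in tumor 1 and 5.82 and 6.53 CPM in tumors 9 and 14, against 3.72 to 6.92 CPM in the others. Nupr1, a stress-induced chromatin protein, had 284 CPM in tumor 1 and 196 and 181 CPM in tumors 9 and 14, against 88.6 to 138 CPM in the other tumors. Its log2 fold change was 1.56 in the IgG controls and 0.55 in the non-responders, with an adjusted p of 0.00607 for the difference by edgeR. Traf2, an adaptor of tumor necrosis factor receptors, had 102 CPM in tumor 1 and 58.8 and 59.8 CPM in tumors 9 and 14, against 44.7 to 59.1 CPM. Without tumor 14, the genes called for this difference numbered 4 higher and 1 lower, against 152 and 94 with it.

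**Figure D4:**
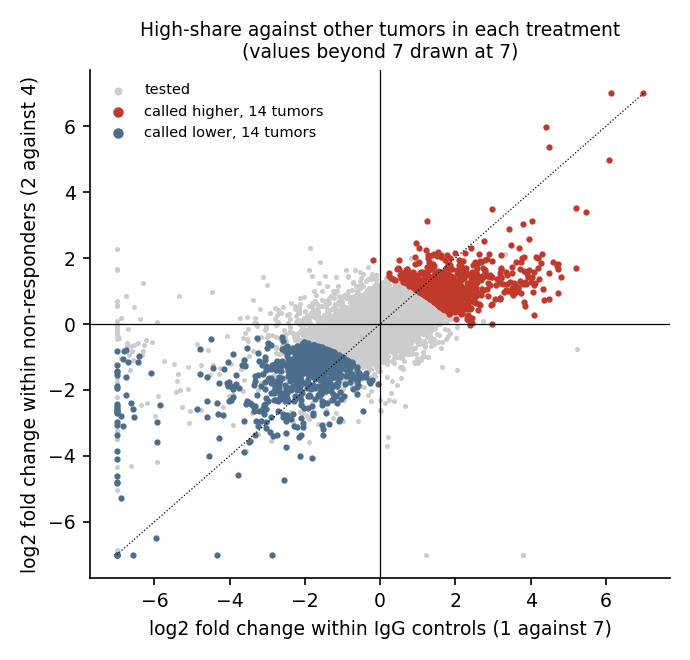
Log2 fold change of high-share against other tumors within the IgG controls (horizontal axis, 1 against 7) and within the non-responders (vertical axis, 2 against 4), 1 point per tested gene. Red and blue mark the 1016 and 880 genes called over the 14 tumors, and 70 genes beyond 7 on either axis are drawn at 7.

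Within the other 11 tumors, whose shares spanned only 2.52% to 3.21%, no gene passed edgeR's test of following the share. Over 16155 genes tested, 0% passed an adjusted p of 0.05 in edgeR for a slope on the log2 share, and 383 had an unadjusted p under 0.05, while DESeq2 passed 5. Without tumor 3, which had the highest of these shares, 1546 genes had an unadjusted p under 0.05 in edgeR and 0 passed the adjusted p. Of the mitochondrial counts of tumor 3, 42.5% lay on ribosomal RNA, against 2.56% to 3.91% in the rest of the 11. Its place as the highest share therefore rests on ribosomal RNA. Both this and the narrow range of shares limit what a slope in these tumors can show.

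The called genes were not spread evenly over kinds of transcript. Of 13560 protein-coding genes 3.38% were called higher and 5.43% lower, with a median log2 fold change of -0.06. Of 449 lincRNAs 21.8% were called higher and 3.12% lower, with a median of 0.52, and of 441 antisense RNAs 19.7% were called higher, with a median of 0.51. Among 47 sense intronic transcripts, which lie inside introns of other genes, 44.7% were called higher, with a median of 0.89. Among 584 transcripts of the biotype TEC, gene models that await experimental evidence, 32.5% were called higher, with a median of 0.57. Medians of the same sign appeared in each treatment, at 0.52 and 0.53 for lincRNAs in the IgG controls and the non-responders.

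Transcript length and base composition moved with the difference too. Among 10481 protein-coding genes that shared no exon base with another tested gene, the lowest of 4 bins of GC content (31% to 44.5%) had a median log2 fold change of -0.31, and the highest (54.2% to 72.8%) a median of 0.225. In the bin of lowest GC, 1.64% of genes were called higher and 9.38% lower. In the bin of highest GC, 4.52% were called higher and 2.22% lower. Over 4 bins of transcript length the median ran from 0.001 in the shortest to -0.19 in the longest. With offsets for GC and length in the model, an alternative chosen after seeing the data, 1710 genes were called, and 1433 of the 1896 calls were among them with the same direction.

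Some overlapping genes differed in opposite directions at a single locus. Galnt2, which begins O-linked glycosylation of proteins, lies on chromosome 8 at chr8:124231391-124345724 inside the longer gene Gm20388 on the same strand. Its levels were 29.7, 29.2 and 31.6 CPM in tumors 1, 9 and 14, against 104 to 164 CPM in the others. Gm20388 had 126, 107 and 106 CPM in the same 3 tumors and at most 1.28 CPM in the others. The sum of the pair was 143 CPM in the high-share tumors (136 to 156) and 135 CPM in the others (104 to 164), so the ranges of the sum overlapped while those of each gene did not. Of the sum, 77.0% to 81.0% lay on Gm20388 in the high-share tumors and at most 0.832% in the others.

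The gamma protocadherins, adhesion proteins of neurons built from variable first exons and shared last exons, also held such a pair. Pcdhgc4 had 160, 127 and 123 CPM in tumors 1, 9 and 14 against 3.33 to 29.4 CPM in the others. Pcdhgc3 had 29.0, 32.3 and 51.8 CPM against 127 to 240 CPM. Their sum was 174 CPM in the high-share tumors and 193 CPM in the others. B3gnt2, which builds polylactosamine chains, had 4.45, 7.49 and 9.60 CPM against 28.6 to 38.7 CPM, and the overlapping Gm28048 had 11.2, 14.1 and 18.3 CPM against at most 1.53 CPM. Here the sum was lower in the high-share tumors, at 21.7 CPM (15.6 to 27.9) against 33.6 CPM (28.9 to 38.9), with ranges that did not overlap. Other pairs had sums that differed more, with a log2 ratio of the sums of -1.78 for Gm43489 and Hgf, -1.27 for Ugt1a1 and Ugt1a7c and 1.46 for Gm49384 and Gm49383. Pcdhgc4 was also paired with Pcdhgb2, Pcdhgb6 and Pcdhgb7, which had at most 3.53 CPM, with log2 ratios of 3.17, 3.30 and 3.285. Among genes sharing exons on the same strand only, 12.6% were called higher and 6.69% lower, against 5.76% and 6.06% of 12057 genes sharing none.

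Genes to be named were taken from the 733 calls whose mean count reached 100 and whose 3 high-share tumors all lay on 1 side of the others, as the 12 highest and 12 lowest fold changes, leaving out names of the Gm and Rik kind. Of these, 6 of the 12 higher and 3 of the 12 lower genes shared exon bases with another tested gene, and their counts are uncertain for that reason. The setting for strand in the counting is not given in the sources used here, so reads of a gene and its antisense partner cannot be told apart. All 24 had the same direction in the IgG controls and in the non-responders. The choice of genes had fixed this, since all 3 high-share tumors had to lie on 1 side of the others.

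Rpgrip1, a protein of photoreceptor cilia, headed the higher genes with 35.0, 20.6 and 11.4 CPM in tumors 1, 9 and 14 against 0.184 to 0.768 CPM in the others. Its log2 fold change was 5.49 ± 0.30 (SE), with an adjusted p of 6.64e-08. It lies opposite Supt16, a histone chaperone, and shares exon bases with it. Supt16 had 90.6, 101.3 and 111 CPM against 165 to 212 CPM, so that the 2 genes differed in opposite directions.

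Among the higher genes that shared no exon, 4 encode transcription factors. Sox9, a regulator of progenitor cells in the gut and in cartilage, had 325, 227 and 215 CPM against 52.8 to 105 CPM with a median of 83.4. Its log2 fold change was 1.61 ± 0.18, with an adjusted p of 6.34e-06. Pou2f2, known for its role in B cells, had 44.7, 37.5 and 26.6 CPM against 7.92 to 13.2 CPM, a log2 fold change of 1.87. The homeobox genes Hoxc8 and Hoxa5, which set position along the body axis, had log2 fold changes of 1.71 and 1.65. Without tumor 1, Hoxa5 had a log2 fold change of 0.999 and was no longer called. Dpysl2, which binds tubulin in growing axons, had 85.1, 119 and 102 CPM against 24.01 to 39.2 CPM, with a log2 fold change of 1.66. The host transcript Mir99ahg had 30.1, 15.01 and 15.1 CPM against 4.22 to 7.16 CPM. In each of these genes tumor 1 was highest, except in Dpysl2.

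The other higher genes were Ccdc24, Serpinc1, Rsc1a1 and AL732309.1, with log2 fold changes of 2.16, 1.87, 1.79 and 1.76. Serpinc1, the plasma inhibitor antithrombin, had 17.2, 21.3 and 22.4 CPM against 1.48 to 9.78 CPM. Each of these 4 shared exon bases with a neighbor, namely B4galt2 and Slc6a9, Zbtb37, Ddi2 and Ndor1.

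Among the lower genes, 2 were processed pseudogenes. Pgam1-ps2 had 1.52, 1.82 and 2.51 CPM against 26.4 to 51.9 CPM, a log2 fold change of -4.19 ± 0.25. Cbx3-ps6 had 0.120, 0.512 and 1.16 CPM against 4.83 to 9.98 CPM. Such pseudogenes resemble the spliced mRNA of a parent gene, and how reads were divided between copy and parent is uncertain.

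The named lower genes Uprt, Atp7a and Mbnl3 lie on the X chromosome, which was not compared with the share of all tested genes on it. Uprt, related to the enzymes that salvage uracil, had 1.84, 2.46 and 3.07 CPM in tumors 1, 9 and 14 against 9.22 to 20.7 CPM, a log2 fold change of -2.77 ± 0.22. Atp7a, a copper transporter, had 2.76, 3.39 and 5.93 CPM against 12.4 to 33.9 CPM, a log2 fold change of -2.75. Mbnl3, an RNA-binding protein that acts on splicing, had 1.64, 2.53 and 3.67 CPM against 8.30 to 22.5 CPM. In each of these genes tumor 1 was the lowest of all 14.

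On chromosome 8, Pdpr, which regulates the phosphatase of pyruvate dehydrogenase in the mitochondrial matrix, had 2.44, 6.05 and 6.77 CPM against 21.7 to 43.9 CPM, a log2 fold change of -2.71 ± 0.30. It shares exon bases with an antisense gene. Klhl11, an adaptor of a ubiquitin ligase, had 2.28, 2.24 and 2.61 CPM against 7.24 to 16.8 CPM. Slfn3, a schlafen protein, had 2.72, 2.82 and 3.49 CPM against 9.84 to 17.8 CPM, and its log2 fold change was -2.26. Masp1, a protease of the lectin pathway of complement, and Itih5, a stabilizer of hyaluronan, had log2 fold changes of -2.54 and -2.74. Itih5 varied among the other tumors from 1.65 to 12.4 CPM and was not called without tumor 1 or without tumor 14, with adjusted p of 0.0796 and 0.0698 by edgeR.

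Gene lists were described by counts of members. Counts called are to be read against 6.37% called higher and 5.52% called lower over all genes. Counts at the adjusted p alone, given as higher or lower, are to be read against 27.2% higher and 26.4% lower. The median log2 fold change over all 15943 genes was -0.001. No list was tested as a set, and of the members named below those that were not called were in part chosen after their values were seen.

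The nuclear genes for respiratory chain subunits did not move as a block with the mitochondrial mRNAs. Of 37 nuclear complex I subunits 0 were called, and at the adjusted p alone 19 were higher and 4 lower, with a median log2 fold change of 0.29. Ndufa5, a small accessory subunit, had 47.8, 43.9 and 32.4 CPM against 15.6 to 26.1 CPM, whereas Ndufs1, the largest iron-sulfur subunit, had 53.8, 60.4 and 69.6 CPM against 91.7 to 123 CPM. Of 25 subunits of complexes II to IV, 10 were higher and 6 lower at the adjusted p. Cox6c had 521, 589 and 547 CPM against 289 to 422 CPM, and Sdha, the flavoprotein of complex II, had 80.2, 97.8 and 111 CPM against 165 to 207 CPM.

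The catalytic subunits Atp5b and Atp5a1 of the ATP synthase were called lower. Atp5b had 402, 547 and 620 CPM against 997 to 1182 CPM, and Atp5a1 had 373, 473 and 489 CPM against 810 to 1071 CPM. Their log2 fold changes were -1.09 ± 0.11 and -1.04 ± 0.11, with adjusted p of 1.87e-06 and 2.55e-06. Of the 15 subunits 5 were higher and 5 lower at the adjusted p, and those 2 were called. Without tumor 1 neither was called, at log2 fold changes of -0.88 and -0.89.

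Across these 3 lists, the transcripts that were higher had a shorter median length than those that were lower, a comparison chosen after the values were seen. The 34 of 77 subunits that were higher at the adjusted p had a median transcript length of 901 bases (419 to 4435). The 15 that were lower had a median of 1735 bases (753 to 2900), so the ranges overlapped. The corresponding medians for mitochondrial ribosomal proteins were 2431 and 2220 bases, with 25 of 78 higher and 17 lower.

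Genes that maintain and express the mitochondrial genome lay on either side and none was called. Polg, the mitochondrial DNA polymerase, had 97.8, 99.1 and 94.6 CPM against 63.5 to 77.7 CPM. Tfam, which packages mitochondrial DNA, had 60.6, 63.6 and 78.5 CPM against 76.7 to 98.8 CPM. Lrpprc, which stabilizes mitochondrial mRNAs, had 57.9, 65.3 and 72.3 CPM against 92.9 to 125 CPM, a log2 fold change of -0.68. Of 18 genes of replication and transcription, 7 were higher and 6 lower at the adjusted p. Of 18 genes of mitochondrial RNA processing and decay, 2 were higher and 6 lower. Of 11 mitophagy genes 1 was higher and 4 were lower, among them the receptor Sqstm1 at a log2 fold change of -0.49. Ppargc1a, the main coactivator of mitochondrial biogenesis, did not pass the filter on low counts.

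RNA-related lists leaned to the higher side. Of 13 snoRNA host genes, whose introns carry small nucleolar RNAs, 11 were higher and 0 lower at the adjusted p, with a median of 0.68. Snhg20 had 88.7, 54.6 and 42.9 CPM against 19.2 to 33.6 CPM and was the only member called. Of 26 splicing genes 18 were higher and 2 lower, with a median of 0.365. Rbm25, a splicing regulator, had 1233, 717 and 629 CPM against 323 to 447 CPM, with a log2 fold change of 1.21 ± 0.13, and Srsf11 had 724, 504 and 459 CPM against 245 to 333 CPM. Without tumor 1 neither Snhg20, Rbm25 nor Srsf11 was called.

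Of 11 long RNAs that stay in the nucleus, 5 were higher and 0 lower at the adjusted p. Their summed level of 6495, 4046 and 4827 CPM in tumors 1, 9 and 14 overlapped the 2013 to 7814 CPM of the others. The overlap came from tumor 3. As shares of nuclear counts, these RNAs took 0.434% to 0.660% in the high-share tumors and 0.613% in tumor 3. In the remaining tumors they took 0.205% to 0.289%. Malat1, a component of nuclear speckles, had 2787, 2131 and 2618 CPM against 830 to 1722 CPM with a median of 1160, a log2 fold change of 1.08 ± 0.20. Neat1, the scaffold of paraspeckles, had 2119, 1209 and 1229 CPM against 585 to 1006 CPM. Kcnq1ot1, an antisense RNA of an imprinted locus, had 97.2, 53.5 and 46.3 CPM against 17.5 to 38.1 CPM. These 3 were called higher and 0 lower, and without tumor 1 Malat1 and Neat1 were not called.

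As shares of nuclear counts, lincRNA and antisense genes took 1.39%, 1.25% and 1.302% in tumors 1, 9 and 14 against 0.812% to 1.14% in the others. The 1.14% was that of tumor 3, which had 20.4% of all its counts on CT010467.1. That gene is part of the nuclear total and lowers the other shares of tumor 3. The separation of tumor 3 in the lincRNA and antisense share therefore depends on counting it. Replication-dependent histone genes, whose main mRNAs lack poly(A) tails, took 0.142%, 0.137% and 0.147% against 0.0582% to 0.123%. Each had the smallest p that an exact permutation test of 3 against 11 tumors can give, 0.00275, two-sided, and 0.00824 after adjustment over 9 measures. Total nuclear counts, lower in the high-share tumors, had the same p by that test. The nuclear total of tumor 3 included its counts on CT010467.1, so its separation in this measure also depends on counting that gene. The tumors were singled out with this axis of variation already known, and the test left out treatment, so these p-values are a description. Of 52 histone genes tested, 3 were called higher, all at under 4 CPM.

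Translation and proteolysis genes did not share a direction. Of 82 cytosolic ribosomal protein genes 44 were higher and 6 lower at the adjusted p, with a median of 0.31 and none called. Rplp0, of the ribosomal stalk, was lower, with 1839, 2141 and 2350 CPM against 2833 to 3943 CPM. Of 23 translation factors 5 were higher and 11 lower, and Eef1a1, which brings transfer RNAs to the ribosome, had 6230, 5855 and 6359 CPM against 8768 to 10800 CPM. Of 24 proteasome subunits 2 were higher and 12 lower. Psmd2, of the proteasome base, had 213, 227 and 260 CPM against 476 to 582 CPM and was called at a log2 fold change of -1.14 ± 0.09.

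Genes of cell division were lower without reaching the fold needed for a call. Of 30 cell cycle genes 19 were lower and 3 higher at the adjusted p, with a median of -0.46, and in 16 all 3 high-share tumors lay below all others. Top2a, which untangles DNA before mitosis, had 513, 534 and 582 CPM against 823 to 1120 CPM, a log2 fold change of -0.84 ± 0.10. Rrm1, of ribonucleotide reductase, had 106, 116 and 133 CPM against 198 to 289 CPM.

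Immediate early genes, which respond within minutes to stimuli, were higher in 9 of 20 cases at the adjusted p and lower in 0. Klf4 had 211, 127 and 120 CPM against 42.5 to 89.4 CPM and a log2 fold change of 1.10 ± 0.19, and Egr1 had 51.3, 19.4 and 29.9 CPM against 9.54 to 26.4 CPM. Without tumor 1 neither was called. Heat shock chaperones had a median of 0.17 with 2 higher and 1 lower, and without tumor 1 the median was -0.19. Of 15 ER chaperones Canx, calnexin, was called lower, with 308, 368 and 468 CPM against 948 to 1196 CPM.

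Of 16 targets of the integrated stress response, a program that mitochondrial and amino acid stress can start, 3 were higher and 5 lower at the adjusted p. The called members were Slc7a11, the cystine transporter, with 11.5, 16.9 and 31.7 CPM against 41.9 to 75.5 CPM, and Psat1, of serine synthesis, with 243, 265 and 333 CPM against 467 to 663 CPM. Of 15 p53 targets and 24 genes of hypoxia and glycolysis, 1 and 3 were higher and 4 and 6 lower. Tpi1, a glycolytic enzyme, was called lower at a log2 fold change of -1.002.

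The cholesterol synthesis genes, which the series title singles out, differed mainly in tumor 1. Their summed level was 891 CPM in tumor 1, 1394 in tumor 9 and 1413 in tumor 14, against 1133 to 2195 CPM with a median of 1725 in the others. The median log2 fold change was -1.21 in the IgG controls and -0.025 in the non-responders. Of 21 genes Idi1 was called, with 13.9, 32.3 and 33.4 CPM against 43.6 to 100 CPM, and it was not called without tumor 1.

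**Figure D5:**
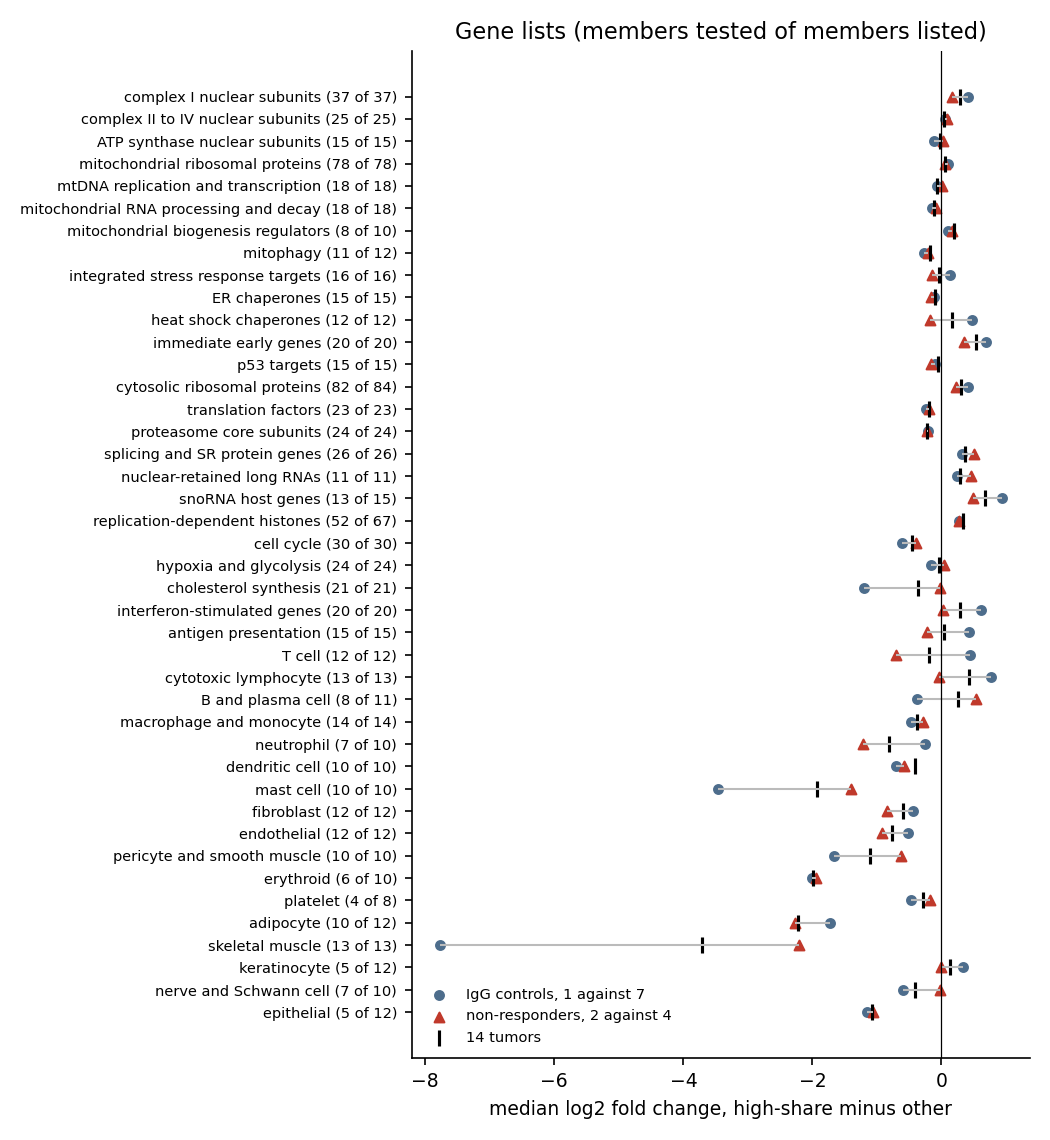
Median log2 fold change of the tested members of each gene list (horizontal axis), high-share minus other tumors, over the 14 tumors (vertical ticks), within the IgG controls (circles) and within the non-responders (triangles). The snoRNA host genes lie at 0.68 and the erythroid genes at -1.99 over the 14 tumors.

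Markers of cell types were called lower in several lists, above all erythroid and mast cell genes. In bulk tissue fewer cells of a type and less RNA per cell cannot be told apart. Of 17 marker lists, the epithelial one included, 14 had a median below 0, and in 7 of these at most 1 member was called. The erythroid genes had summed levels of 27.1, 24.9 and 30.8 CPM in tumors 1, 9 and 14 against 36.1 to 199 CPM with a median of 110, and 4 of 6 tested genes were called lower. The beta globin Hbb-bs had 7.85, 8.8 and 14.01 CPM against 14.2 to 77.9 CPM, a log2 fold change of -2.14 ± 0.56. Without tumor 1, 2 of the erythroid genes were called lower.

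Mast cell genes were called lower in 7 of 10 cases and higher in 0, with summed levels of 9.18, 32.0 and 24.2 CPM against 20.3 to 67.7 CPM. Mcpt4, a chymase, had 0.681, 2.56 and 2.65 CPM against 2.004 to 12.2 CPM. Without tumor 1 the count was 3. Pericyte and smooth muscle genes were called lower in 4 of 10 cases in 0 without tumor 1 and in 2 without tumor 14. Acta2, smooth muscle actin, had 2.28, 9.98 and 3.56 CPM against 4.66 to 34.3 CPM.

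Endothelial genes were called lower in 3 of 12 cases, and in 1 without tumor 1 or without tumor 14. Pecam1, a junction protein of the vessel wall, had 26.3, 29.5 and 20.3 CPM against 30.8 to 79.0 CPM and did not overlap. Fibroblast genes were called lower in 3 of 12 cases, and in 1 without tumor 1 or without tumor 9. Postn, a matrix protein, had 160, 110 and 106 CPM against 156 to 454 CPM.

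Among macrophage genes 3 of 14 were called lower. Adgre1, which encodes the F4/80 antigen, had 17.2, 25.4 and 33.5 CPM against 64.8 to 112 CPM, and Mrc1, the mannose receptor, had 13.7, 28.0 and 26.9 CPM against 41.8 to 95.7 CPM. Yet the summed level of the 14 genes, at 2798, 2783 and 2396 CPM, overlapped the range of the others, 2430 to 4133 CPM. Dendritic cell genes were called lower in 2 of 10 cases, and in 1 without tumor 14. The part of these cell types in the other results was not tested.

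Lymphocyte markers were not separated. Of 12 T cell genes 1 was called lower, Cd4, with 0.721, 1.504 and 0.917 CPM against 1.08 to 3.07 CPM. Of 13 genes of cytotoxic lymphocytes 0 were called, and their sum of 338, 278 and 257 CPM overlapped the range of 49.8 to 340 CPM. Of 20 interferon-stimulated genes 1 was called, Stat2, with 298, 205 and 189 CPM against 60.3 to 161 CPM, and it was not called without tumor 1.

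Tissue around the tumor varied among the other 11. Skeletal muscle genes summed to 7.85, 18.1 and 8.997 CPM in the high-share tumors and to between 10.7 and 2604 CPM in the others, and none of 13 was called. Adipocyte genes were called lower in 1 of 10 cases and nerve genes in 0 of 7. Of neutrophil, platelet, keratinocyte and B cell genes, 7, 4, 5 and 8 were tested, with 1 called lower, 1 lower, 1 higher and 0.

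The label of the tissue, a colorectal carcinoma, was checked with epithelial markers. Of 12 such genes 5 passed the filter, and Epcam had 0.240, 0.352 and 0.388 CPM in the high-share tumors and 0.0621 to 0.966 CPM in the others. Cdx2 and Krt20, which define intestinal epithelium, did not pass the filter in these tumors. Krt8, Krt18 and Krt19, keratins of simple epithelia, had at most 0.388 CPM in the high-share tumors and at most 1.84 CPM in the others. Cdh1, an adhesion protein of epithelia, had 4.13, 3.94 and 4.41 CPM against 4.26 to 8.32 CPM. None of the 5 was called.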

How the data were processed

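Bulk RNA-seq of 16 MC38 tumors was used, 1 tumor per mouse, and 14 entered the comparisons. Reads were mapped by the authors with STAR 2.6 on GRCm38, and the deposited expected counts were estimated with RSEM 1.3.0 on Ensembl 91 genes. They were rounded here. Total counts ran from 26603477 to 39948874. The table held 53465 genes and 92 spike-in entries, left out, and 53360 genes matched GENCODE mouse release 21.

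The 37 mitochondrial genes were removed before scaling. edgeR 4.0.16 in R 4.3.3 was used with TMM scaling, edgeR's filter by treatment and robust quasi-likelihood tests with Benjamini-Hochberg adjustment, with treatment and high share in the model, or 4 groups for the effects within treatments. CPM are nuclear counts scaled with TMM. Errors are standard errors from the F statistic. DESeq2 1.42.0 was an alternative. Principal components used log2 CPM with a prior count of 2, scaled. Near copies were found by BLAST. Steps were tested on simulated counts. Python 3.11.15 was used for the other steps.

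Alternatives were planned, except 4 added after seeing the data. Composition used exact permutation tests over 364 arrangements. Named genes were the 12 highest and 12 lowest among called genes with a mean of 100 counts and no overlap of tumors, and called or most abundant list members. Further list members were chosen after their values were seen. The tumors, the 42 lists and the rule were chosen with earlier results of these data known. Replicates are separate mice.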

Additional observations from a re-analysis of the deposited data

Results flagged for a closer look

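In 24 groups of values, 12 library measures in the 8 IgG controls and in the 6 non-responders, single tumors were looked for that lay far from the rest of their group. Chance gives about 1 in 20. IgG control tumor 1 stood apart by its mitochondrial share of 7.6%, against 2.52% to 3.21% in the other IgG controls, and by its nuclear total of 2.46e+07 counts, against 3.28e+07 to 3.70e+07. These totals include the counts of tumor 3 on the ribosomal RNA gene CT010467.1. IgG control tumor 3 stood apart by 20.4% of counts on the ribosomal RNA gene CT010467.1, by 42.5% of its mitochondrial counts on ribosomal RNA, by 36.5% of nuclear counts on the 100 highest genes, by 76.0% on protein-coding genes and by 0.225% on pseudogenes. The shares of nuclear counts have CT010467.1 in their total, so they are not separate from its 20.4%. In none of these 12 measures did a non-responder tumor stand apart.

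Within-treatment effects differed with the lowest p for Gm38102, with a non-responder minus IgG difference of 2.602 on the log2 scale, for Nupr1, with -1.01, and for Traf2, with -0.96, each by a test of the difference itself. The IgG side holds tumor 1 alone, so treatment and that tumor cannot be told apart. Without tumor 14, 4 higher and 1 lower calls were made for this difference, against 152 and 94.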

How the results depend on the processing

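No paired analysis was possible because the IgG controls and the non-responders share no replicate numbers. Against 1016 higher and 880 lower calls, a fit of protein-coding genes only gave 553 higher, a split at 6%, which leaves tumor 1 alone in the high group, gave 1375 lower, and the log2 share as a number gave 532 and 584. Leaving out 1 tumor gave 508 to 1271 higher and 478 to 1011 lower, with the fewest without tumor 1. In the non-responders the ranges were 248 to 615 and 205 to 518, with the fewest without tumor 9. The difference of the 2 effects had 168 lower calls with DESeq2, 36 higher and 23 lower with total nuclear counts, and 4 to 191 higher and 1 to 121 lower with 1 tumor left out. The slope within the other tumors passed 5 genes in DESeq2 and 17 with no filter. The gap on the first component, 1.77 times the range of the others, was 0.186 with the 500 genes of highest variance. Among composition measures, the adjusted p (exact permutation) for genes with at least 10 counts was 0.982, and 0.00733 after thinning. As shares of all counts it was 0.11 for pseudogenes and 0.0703 for cytosolic ribosomal proteins, against 0.0124 and 0.0206 as shares of nuclear counts. Without tumor 3, an alternative chosen after seeing the data, it was 0.0045 for the 100 highest genes and for protein-coding genes. With all 14 tumors neither of these measures had an adjusted p under 0.05. Some list medians changed sign with 1 tumor left out, with ranges of -0.19 to 0.255 for heat shock chaperones, -0.715 to 0.018 for T cells, -0.047 to 0.606 for cytotoxic lymphocytes, -0.096 to 0.526 for B and plasma cells and -0.125 to 0.412, with -0.026 without tumor 1, for keratinocyte genes. The causes were not tested. Of 684 values of the 24 named genes under alternatives, 10 lost their call and 0 reversed. These genes were chosen for large changes without overlap, which favors keeping a call. For the other called list members, 193 of 1467 values lost their call and 0 reversed.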
